A study of Danio rerio with 13 samples.

Results

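Calcium signaling genes were examined in ZF4 cells, a fibroblast line from zebrafish embryos, that had been kept in the cold. The genes were chosen by annotation: a gene was a member if its KEGG pathway annotation in the deposited expression table named the calcium signaling pathway (ko04020) and did not name regulation of the actin cytoskeleton (ko04810). This rule gave 258 of the 32677 genes in the table. A further 32 genes of the pathway were left out because they carried both annotations. The rule itself uses no expression or methylation value, but it was chosen with earlier results of these data known.

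The tested cells grew at 18°C, for either 5 days (called 5 d below) or 30 days (30 d), and the control cells were kept at 28°C. All groups were the same ZF4 line in the same medium, with no genetic change. RNA-seq was done on 3 libraries of each group. Methylated DNA was measured by MeDIP-seq, in which an antibody to 5-methylcytosine pulls down methylated fragments for sequencing, and each group had 1 library made from the pooled DNA of 3 cultures. The comparisons ask which members differed in RNA or in methylated fragments after short and after long cold exposure. The line stands for 1 cultured cell type and not for a tissue of the fish. The labels do not say whether the RNA libraries of a group came from separate cultures, so the p-values measure only the spread between these libraries.

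In calcium signaling, the cytosol of a resting cell holds very little calcium, and a stimulus lets it in through channels of the plasma membrane or releases it from the endoplasmic reticulum. G protein-coupled receptors and receptor tyrosine kinases turn on phospholipase C, whose product inositol trisphosphate opens the release channels. Calmodulin then binds calcium and turns on kinases, phosphodiesterases and the phosphatase calcineurin. Pumps and sodium/calcium exchangers return calcium to the reticulum or to the medium, and mitochondria take up part of it. The slowing of pumps and exchangers in the cold is a classical problem for animal cells.

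Of the 258 members, 71 carried a name in the gene name table, and 118 are named here after the RefSeq symbol of a zebrafish match in the deposited annotation of at least 95% identity. A symbol from another species was used for 15, written in capitals, and 54 are given by their Ensembl identifier. The largest group by role was G protein-coupled receptors, with 69 members. Calmodulin-dependent enzymes had 24 members, ligand-gated and TRP channels 19, phospholipase C 19, voltage-gated calcium channels 17, adenylate cyclases 16, pumps and exchangers 16, G protein alpha subunits 13 and protein kinases A and C 12. The remaining groups had at most 11 members each.

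The RNA libraries held between 21407769 and 44853311 counts, and members took between 0.683% and 0.801% of them. The 3 libraries numbered 3, 1 in each group, held between 21407769 and 22504969 counts, and a single gene took 7.25 to 7.77% of these, against at most 1.42% in the other libraries. The fibroblast marker list was expressed in part, with summed levels of 3990 to 5000 CPM (counts scaled to library size) at 5 d, 3840 to 5770 CPM at 30 d and 4120 to 8230 CPM at 28°C. Most of this was collagen: at 28°C col1a1a averaged 2830, col1a2 2120 and col1a1b 710 CPM. There fn1a averaged 261 and pdgfrb 99.5 CPM, but vim 1.7, dcn 0.419 and thy1 0.221 CPM, and lum had 15, 20.5 and 381 CPM. The epithelial list was expressed too, at 1230 to 1820 CPM at 5 d, 1060 to 1740 CPM at 30 d and 1380 to 2200 CPM at 28°C. Most of it was the keratin gene krt8, and cdh1, the gene of E-cadherin, had 98.8 to 318 CPM at 5 d and 100 to 258 CPM at 30 d, against 155 to 167 CPM at 28°C. The keratin gene krt4 had 1.08 to 2.51 CPM at 5 d and 0.126 to 2.64 CPM at 30 d, against 3.87, 8.31 and 171 CPM at 28°C, and epcam had at most 0.0917 CPM in any library. Blood markers summed to at most 7.52 CPM, endothelial markers to at most 3.95 CPM and pigment cell markers to at most 1.58 CPM in any library. Muscle markers summed to 64.5 to 89.4 CPM at 5 d, 49.4 to 86.8 CPM at 30 d and 36.3 to 76.5 CPM at 28°C, and neuron markers to 41.9 to 55.1, 40.8 to 62.4 and 34.4 to 82.7 CPM in the same order. No marker of these lists passed the test, and the part of other cell states in the results below was not tested.

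ZF4 cells expressed part of the pathway. Among the members, 164 had enough counts to be tested and 94 did not, of which 17 had no count in any of the 9 libraries. At 28°C, 86 members averaged more than 1 RPKM (reads per kilobase of transcript, scaled to library size), 29 more than 10 and 4 more than 100. The tested share differed by role: 24 of 69 G protein-coupled receptors were tested, against 15 of 16 pumps and exchangers, 9 of 9 release channels and 9 of 9 ErbB receptors. All 8 genes of the calcineurin group were tested, a group that also holds chp1 and chp2, which are not themselves calcineurin subunits. The median level of the tested members at 28°C was 1.16 RPKM.

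The highest levels were those of mitochondrial members and calmodulin. SLC25A5, the adenine nucleotide carrier of the inner mitochondrial membrane, averaged 481 ± 80.1 RPKM at 5 d, 450 ± 172 RPKM at 30 d and 502 ± 148 RPKM at 28°C (SD, n = 3 each). The calmodulin gene calm3b stood at 202 ± 11.4, 191 ± 37.8 and 204 ± 57.9 RPKM in the same order. For both genes the differences were smaller than the spread between libraries. Among receptors the endothelin receptor gene ednraa led, with 33.2 ± 21 RPKM at 5 d, 35 ± 21.6 at 30 d and 33 ± 13.1 at 28°C. The leading G protein gene was GNAS, the stimulatory alpha subunit, with 12.2 ± 0.934, 12.3 ± 3.76 and 12.6 ± 3.7 RPKM in that order. Among calcineurin subunits ENSDARG00000069360, a regulatory subunit, led with 28.1 ± 4.31 RPKM at 5 d, 27.9 ± 4.45 at 30 d and 22.4 ± 3.45 at 28°C. The sphingosine kinase gene sphk2 averaged 62.1 ± 7.47, 46.8 ± 11.5 and 64.8 ± 26.6 RPKM. Reads of near-identical copies, such as the calmodulin genes calm1a, calm2a and calm3b, may have been split among them, so single values of such genes are uncertain.

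The leading members of 3 other roles, a release channel, a voltage-gated channel and a phospholipase C, had standard deviations nearly as large as their means, and in each the libraries numbered 3 stood apart. ENSDARG00000089493, a short gene model annotated as a ryanodine receptor, held 15525, 11886 and 367 counts at 5 d, 15786, 13082 and 327 at 30 d and 14050, 9604 and 261 at 28°C. ENSDARG00000037904, annotated as an L-type calcium channel, averaged 14.7 CPM in the 3 libraries numbered 3 and 359.7 CPM in the other 6. For plcd1b, a phospholipase C delta gene, these means were 31.5 and 601 CPM, and for atp2a3, a calcium pump gene of the endoplasmic reticulum, 22.8 and 283.1 CPM. Other members lay higher in the libraries numbered 3: slc8a2b, a sodium/calcium exchanger gene, averaged 27.2 CPM in them and 4.55 CPM in the other 6, and oxtra, an oxytocin receptor gene, 3.56 and 0.148 CPM. In all, 35 tested members (21.3%) lay above the other 6 libraries in all 3 libraries numbered 3, against 11.2% of all tested genes, and 12 members (7.32%) lay below, against 10.9%. What separates these libraries is not given in the labels. They occur once in each group, and the comparisons are therefore also given below with the library number as a block and without them.

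**Figure D1:**
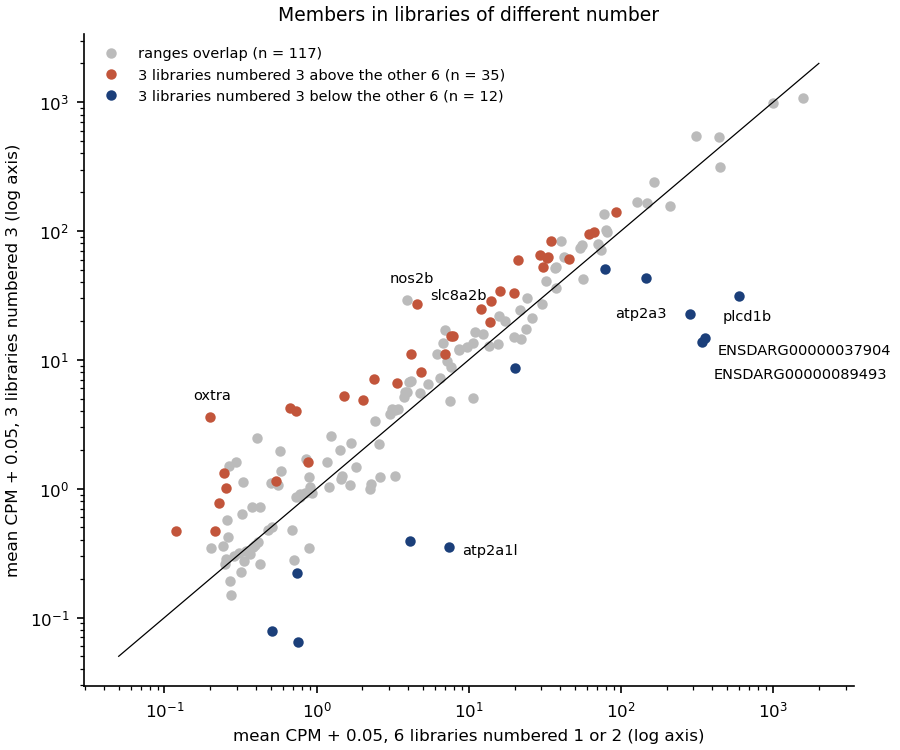
Mean CPM + 0.05 of each of the 164 tested members in the 3 libraries numbered 3 (vertical log axis) against the 6 libraries numbered 1 or 2 (horizontal log axis), with the line of equality. Red points are the 35 members whose libraries numbered 3 all lay above the other 6, and blue points the 12 below them. plcd1b, atp2a3 and the annotated L-type channel and ryanodine receptor models sit far under the line.

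At most 1 member differed in RNA by edgeR after cold exposure beyond the spread between libraries. In simulated counts, the fit without a block recovered 46.5% of 4-fold changes in genes above the median level at 5 d and 47.5% at 30 d. Its counts of 0 therefore do not show that no member changed. With edgeR's quasi-likelihood test over all 19622 tested genes, 0 of the 164 members were higher and 0 lower at 5 d than at 28°C at an adjusted p below 0.05, against 0.0% of all tested genes in either direction. At 30 d the count of members was again 0 higher and 0 lower, against 0.0408% of all tested genes higher and 0.0204% lower. Unadjusted p-values fell below 0.05 without a block for 17 members at 5 d (10.4%, against 11.3% of all tested genes) and for 18 of the 164 at 30 d (against 13.7% of all tested genes). With the block these counts were 27 (16.5%, against 16.8%) and 31 (18.9%, against 19.8%). DESeq2, the other tool run, called 6 members at 5 d (3.66%, against 2.94% of all tested genes), 3 at 30 d (1.83%, against 4.82%) and 0 between 30 d and 5 d (against 0.0102%). Adding the library number as a block gave 0 members at 5 d, against 0.127% of all tested genes higher and 0.133% lower. At 30 d the block gave 1 member higher, slc8a4a, and 0 lower, against 1.02% of all tested genes higher and 0.494% lower. Between 30 d and 5 d no member passed in either direction, with or without the block, against 0.0% of all tested genes, and 3 members (1.83%, against 1.28%) had an unadjusted p below 0.05 without the block and 7 (4.27%, against 2.53%) with it. In bulk RNA, fewer cells of a type and less RNA per cell cannot be told apart.

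The members as a whole were centred near zero. Their median log2 fold change was -0.04 at 5 d and 0.018 at 30 d, and that of all tested genes was -0.008 and -0.011. At 5 d, 74 members had a positive and 90 a negative fold change, and at 30 d, 84 and 80. The 3 cold libraries lay entirely above the 3 libraries at 28°C for 15 members (9.15%, against 9.27% of all tested genes) and entirely below for 17 (10.4%, against 8.34%) at 5 d. At 30 d the counts were 12 (7.32%, against 10.3%) and 11 (6.71%, against 8.49%). These shares are near those of all genes. With 3 libraries against 3, a permutation test of a single gene cannot give a two-sided p below 0.1.

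**Figure D2:**
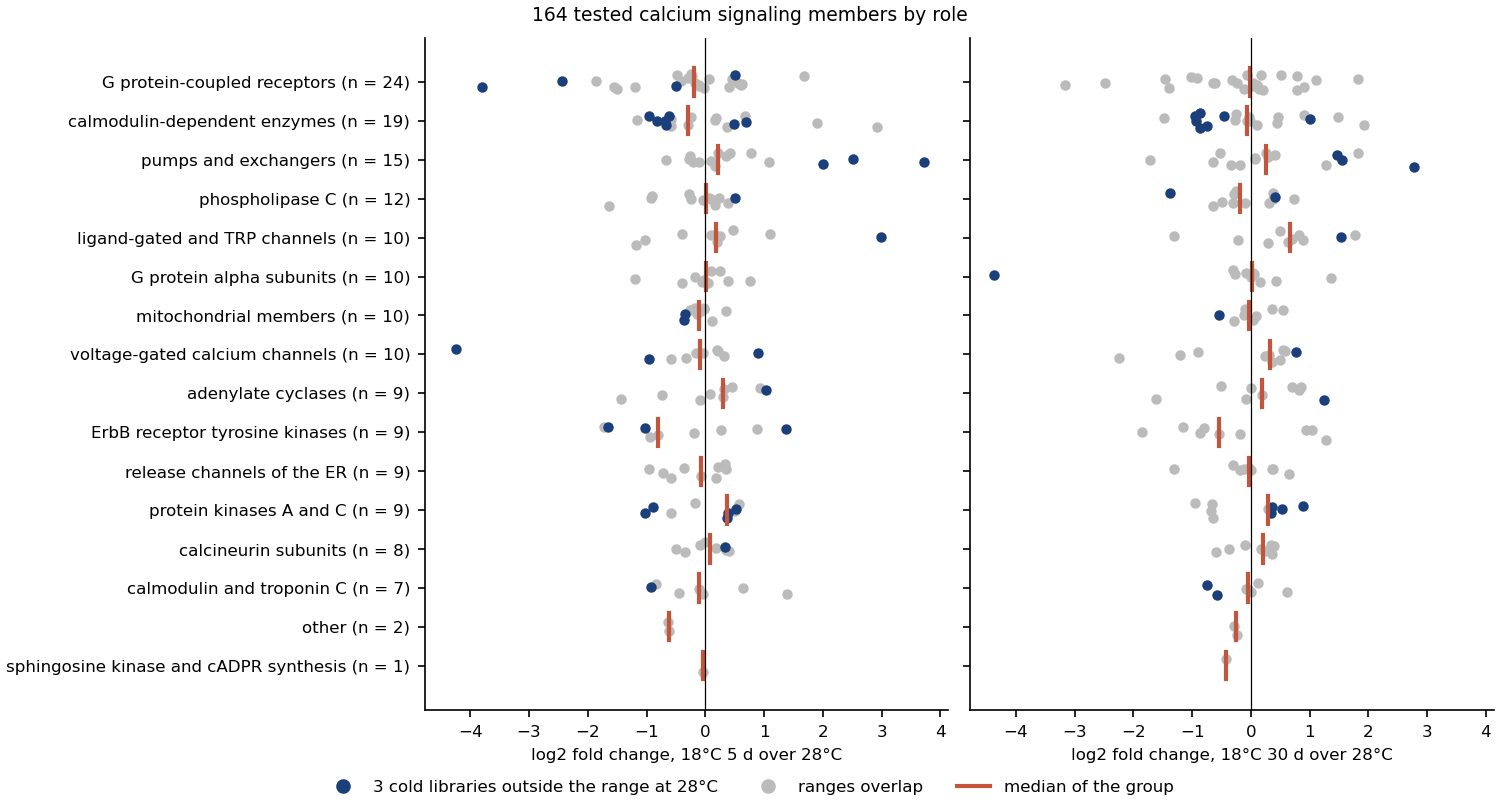
Log2 fold change of the 164 tested members over 28°C at 5 d (left) and at 30 d (right), grouped by role with the number tested in each. Dark points are members whose 3 cold libraries lie outside the range of the 3 libraries at 28°C, grey points overlap it, and red bars are group medians. The group medians lie between -0.802 (ErbB receptors) and 0.363 (protein kinases A and C) at 5 d.

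Among the pumps and exchangers, the sodium/calcium exchanger gene slc8a4a lay higher in all cold libraries, and rose at 30 d by the test with the library number as a block. Members of this family carry calcium out of the cell in exchange for sodium. It stood at 1.4, 2.22 and 3.31 CPM at 5 d and 3.13, 2.19 and 2.98 CPM at 30 d, against 0.415, 0.449 and 0.333 CPM at 28°C. Every cold library lay above every library at 28°C, on 53, 97 and 73 counts at 5 d and 115, 87 and 70 at 30 d, against 16, 19 and 8 at 28°C. At 30 d the log2 fold change was 2.77 (SE 0.427), with an adjusted p from edgeR of 0.0693, which missed the threshold, and of 0.0321 with the library number as a block. At 5 d it was 2.51 (SE 0.424), with an adjusted p of 0.132 and of 0.0609 with the block. Leaving out any 1 library moved the log2 fold change between 2.66 and 2.92 at 30 d and between 2.15 and 2.77 at 5 d. Without the libraries numbered 3, the adjusted p at 30 d was 0.0894 with the block and 0.0645 without it. Under the other edgeR alternatives it ran from 0.0693 to 0.252, and DESeq2 gave 1.9e-06.

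The other 14 tested pumps and exchangers did not pass edgeR's test, with or without the block. The group's median log2 fold change was 0.223 at 5 d and 0.261 at 30 d. atp2b3b, a calcium pump gene of the plasma membrane, had 65, 40 and 19 counts at 5 d and 21, 22 and 31 at 30 d, against 11, 14 and 6 at 28°C, and its libraries did not overlap those at 28°C at either time. The calcium pump gene of the endoplasmic reticulum atp2a2a had 15, 27 and 9 counts at 5 d and 4 in each library at 30 d, against 0, 0 and 3 at 28°C. The most abundant pump gene, atp2a2b, which also encodes a pump of the reticulum, averaged 50 ± 22.8 RPKM at 5 d and 44.7 ± 15.2 at 30 d, against 37.9 ± 8.56 at 28°C, within the spread. Of the 4 tested plasma membrane pump genes, 1 lay entirely above 28°C at 5 d and 2 at 30 d, against 9.27% and 10.3% of all tested genes. Such counts in small groups were not tested.

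Among the channels through which calcium enters, cacna1da, the pore-forming subunit of an L-type voltage-gated channel, had 9.32, 10.1 and 16.5 CPM at 5 d and 9.51, 10.0 and 13.1 CPM at 30 d, against 5.92, 6.78 and 6.49 CPM at 28°C. All cold libraries lay above those at 28°C, with log2 fold changes of 0.91 and 0.77 and adjusted p-values from edgeR of 0.279 and 0.281. The related gene cacna1ab, a P/Q-type channel subunit, had 4, 0 and 3 counts at 5 d and 4, 5 and 17 at 30 d, against 8, 32 and 84 at 28°C. The counts at 28°C spanned a wide range, and the libraries at 30 d overlapped them. The 10 tested ligand-gated and TRP channels had a median log2 fold change of 0.176 at 5 d and 0.665 at 30 d. Of these genes, 1 lay entirely above 28°C at each time, against 9.27% of all tested genes at 5 d and 10.3% at 30 d.

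Most receptors were too low to be tested. Of the 24 tested G protein-coupled receptors, 1 lay entirely above and 3 entirely below 28°C at 5 d, against 9.27% and 8.34% of all tested genes. None lay above or below at 30 d, against 10.3% and 8.49%. The prostaglandin E receptor gene ptger3 had 3, 7 and 2 counts at 5 d and 11, 6 and 10 at 30 d, against 10, 88 and 61 at 28°C. The 9 ErbB genes, receptor tyrosine kinases of the epidermal growth factor family, had the lowest group median at 5 d, -0.802, and -0.535 at 30 d, and 0 of them passed the test. The most abundant, erbb2, averaged 26.3 ± 2.79 RPKM at 5 d and 26.3 ± 9.79 at 30 d, against 47.3 ± 33.4 at 28°C, within the spread of the libraries at 28°C. gnaq, an alpha subunit that links receptors to phospholipase C, had 6, 29 and 0 counts at 5 d and 0, 3 and 0 at 30 d, against 27, 28 and 15 at 28°C. It averaged 0.208 CPM in the 3 libraries numbered 3 and 0.377 CPM in the other 6. Other alpha subunit genes were higher, gna11b with 95 and 61.4 CPM and gna11a with 24.6 and 12 CPM. The 10 tested alpha subunits had median log2 fold changes of 0.008 at 5 d and 0.015 at 30 d.

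Downstream of the receptors, the adenylate cyclase gene adcy2b, which makes cyclic AMP, had 96.5, 111 and 137 CPM at 5 d and 65.4, 102 and 106 CPM at 30 d, against 37.1, 68.5 and 61.6 CPM at 28°C. The groups were apart at 5 d and overlapped in 1 library at 30 d, with log2 fold changes of 1.04 and 0.71 and adjusted p-values from edgeR of 0.258 and 0.358. The phospholipase C epsilon gene PLCE1 had 24.7, 19.6 and 19.8 CPM at 5 d and 25.5, 24.7 and 29.1 CPM at 30 d, against 16.8, 19.1 and 23.8 CPM at 28°C, apart only at 30 d. None of the 9 tested adenylate cyclases and 12 phospholipases C passed the test. The 9 release channels had medians of -0.068 and -0.04, and none of them lay apart from 28°C at either time. Over all tested genes, 9.27% lay above and 8.34% below at 5 d, and 10.3% and 8.49% at 30 d.

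Among the genes of calmodulin and the enzymes it controls, the libraries lay apart in both directions, more often below 28°C. Of the 19 tested calmodulin-dependent enzymes, 2 lay above and 5 below 28°C at 5 d, and 1 and 6 at 30 d. Of the 7 tested genes of calmodulin and troponin C, 0 lay above and 1 below at 5 d, and 0 and 2 at 30 d. Among all tested genes 9.27% lay above and 8.34% below at 5 d, and 10.3% and 8.49% at 30 d. These group counts were not tested. calm1a had 42.4, 35.5 and 52.7 CPM at 5 d and 49.7, 56.7 and 60.9 CPM at 30 d, against 66.4, 72.6 and 109 CPM at 28°C, so that all 6 cold libraries lay below all 3 at 28°C. Its log2 fold changes were -0.93 and -0.57, with adjusted p-values from edgeR of 0.24 and 0.379. calm2a had 26.3, 35.3 and 43.4 CPM at 5 d and 28.1, 33.9 and 23.1 CPM at 30 d, against 46.5, 54.4 and 42 CPM at 28°C, apart only at 30 d. The calmodulin-dependent kinase II genes camk2g1 and camk2g2, copies of the gamma form, stood on opposite sides. camk2g1 had 30.8, 35.8 and 31 CPM at 5 d and 33.6, 23.7 and 40.2 CPM at 30 d, against 52, 49.6 and 87.5 CPM at 28°C (log2 fold changes -0.95 and -0.96, edgeR adjusted p 0.269 and 0.195). camk2g2 had 21.6, 15 and 17.4 CPM at 5 d and 31, 26.5 and 13.9 CPM at 30 d, against 11.8, 12.6 and 13.9 CPM at 28°C, and overlapped at 30 d.

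Phosphorylase kinase, which links calcium to the breakdown of glycogen, is built of alpha, beta, gamma and calmodulin subunits, and its genes also lay on both sides. phkg1a, a catalytic gamma subunit, had 15.5, 17 and 13.4 CPM at 5 d and 15.4, 28.3 and 13.7 CPM at 30 d, against 6.7, 9.63 and 12.2 CPM at 28°C (log2 fold changes 0.69 and 1.01, edgeR adjusted p 0.494 and 0.235). The regulatory alpha subunit gene phka1a had 46.6, 51.9 and 40.1 CPM at 5 d and 41.7, 37.2 and 32.6 CPM at 30 d, against 73.5, 85.7 and 53.3 CPM at 28°C. Its log2 fold change at 30 d was -0.93, with an adjusted p from edgeR of 0.149 and of 0.0588 with the block. The beta subunit gene phkb had 65.2, 53.8 and 54.3 CPM at 5 d and 79.5, 61.1 and 62.9 CPM at 30 d, against 89, 93.1 and 96 CPM at 28°C. All cold libraries of these 3 genes lay outside the range at 28°C. Of the 6 phosphorylase kinase genes tested, 1 lay above and 2 below 28°C at each time. The shares of all tested genes were 9.27% above and 8.34% below at 5 d, and 10.3% and 8.49% at 30 d. itpka, a kinase of inositol trisphosphate, had 18.1, 26.7 and 19.6 CPM at 5 d and 22, 16.6 and 18.9 CPM at 30 d, against 37.5, 34.4 and 24.7 CPM at 28°C, apart at 30 d only.

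Among protein kinases A and C, 3 genes of protein kinase A, the kinase that cyclic AMP turns on, lay higher in all cold libraries. Of the 9 tested genes of this group, 3 lay above and 2 below 28°C at 5 d, against 9.27% and 8.34% of all tested genes. At 30 d, 4 lay above and 0 below, against 10.3% and 8.49%. prkacbb had 44, 36.5 and 63.6 CPM at 5 d and 37.2, 37.6 and 54.6 CPM at 30 d, against 31.6, 33.9 and 35.2 CPM at 28°C. prkacab had 27.1, 32.9 and 31.1 CPM at 5 d and 29, 44.7 and 28.5 CPM at 30 d, against 23.8, 25.2 and 21.8 CPM at 28°C. ENSDARG00000087866, annotated as protein kinase A, had 88.5, 81.5 and 116 CPM at 5 d and 76.6, 92.2 and 109 CPM at 30 d, against 70.4, 76.2 and 71.3 CPM at 28°C. The differences were small, with log2 fold changes of 0.52, 0.36 and 0.39 at 5 d and 0.36, 0.53 and 0.35 at 30 d in this order of genes, and none passed the test. The protein kinase C alpha gene prkcaa had 15.4, 7.5 and 17.1 CPM at 5 d and 17.2, 8.26 and 20.7 CPM at 30 d, against 26.4, 20.1 and 27.4 CPM at 28°C, and overlapped at 30 d. In the calcineurin group, ENSDARG00000069360 had 69.3, 71.5 and 93.9 CPM at 5 d and 65, 93.6 and 79.5 CPM at 30 d, against 56.4, 66 and 62.8 CPM at 28°C. It too overlapped at 30 d.

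Of the mitochondrial members, vdac3, a channel of the outer membrane, had 136, 125 and 173 CPM at 5 d and 118, 134 and 132 CPM at 30 d, against 196, 174 and 188 CPM at 28°C. The cold libraries lay below those at 28°C at both times, with log2 fold changes of -0.36 and -0.54, and the test was not passed. The other VDAC gene of high level, vdac2, averaged 968.3 ± 235 CPM at 5 d and 1041 ± 295 CPM at 30 d, against 979.3 ± 279 CPM at 28°C.

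**Figure D3:**
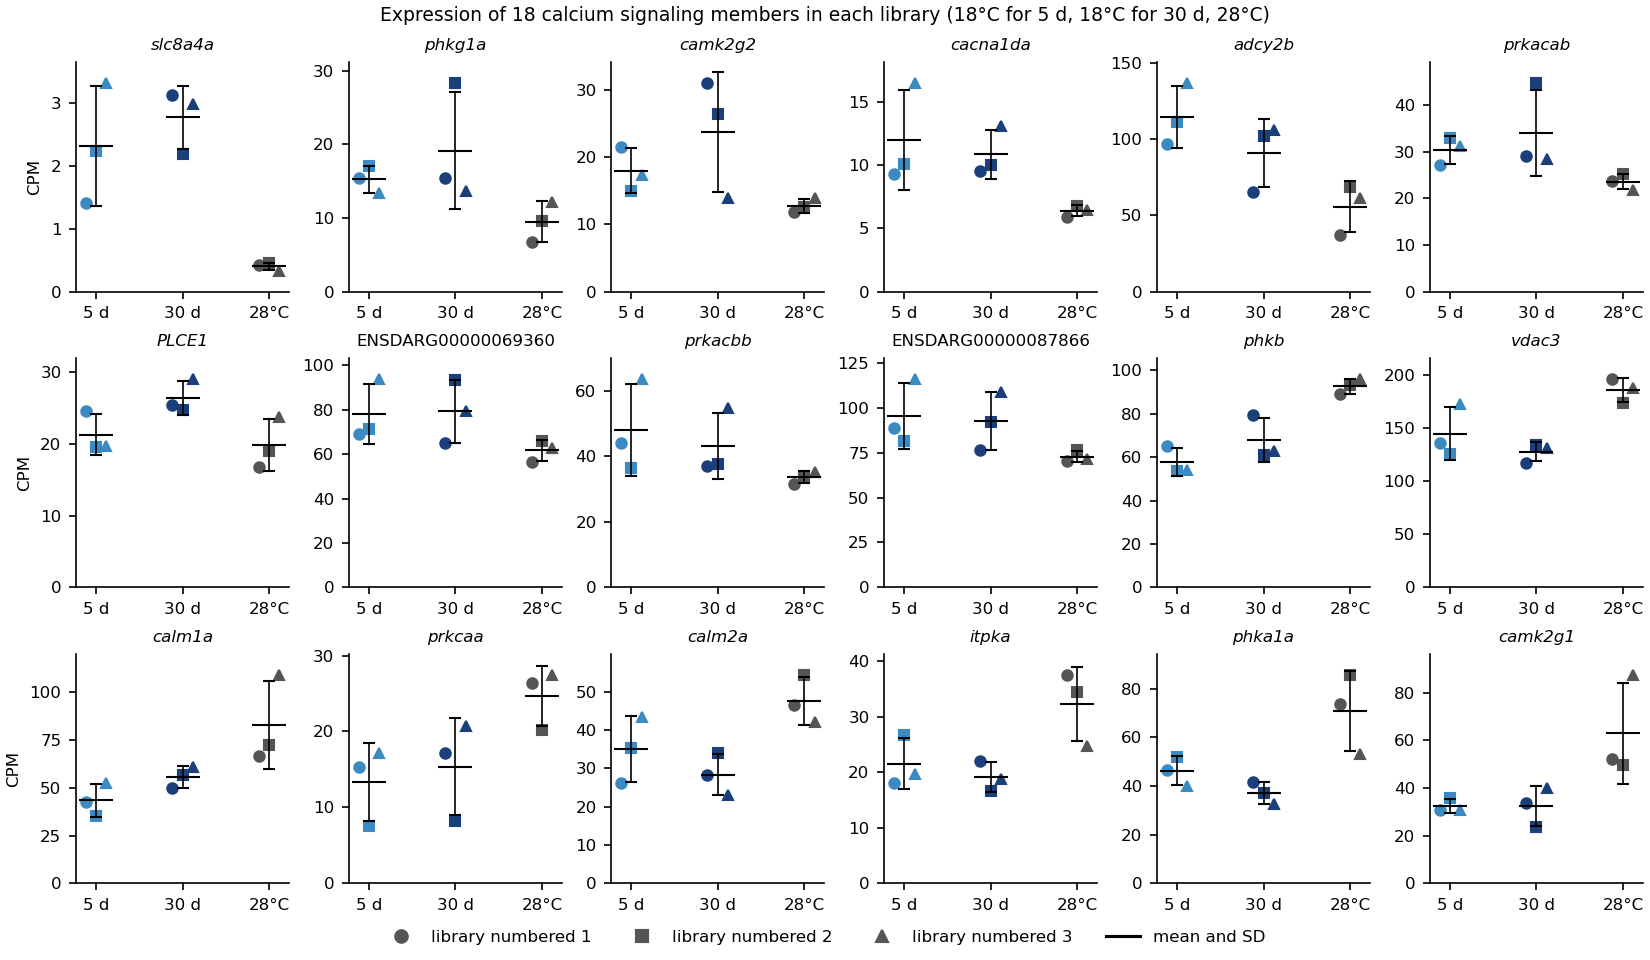
CPM of 18 members in each library at 5 d, 30 d and 28°C, with the mean and SD (n = 3 each), a vertical axis from 0 in each panel and a symbol for each library number. slc8a4a is at most 0.449 CPM at 28°C and at least 1.4 CPM in every cold library, while calm1a, phkb and phka1a lie lower in all cold libraries.

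Genes of calcium handling outside the pathway annotation were examined as 5 lists. None of the 7 tested genes of store-operated entry, 5 of mitochondrial uptake, 6 of calcium-binding chaperones of the reticulum, 7 calcineurin inhibitors and NFAT factors or 5 cytosolic buffers and sensors passed the test at either time, with or without the block. The list named cytosolic buffers and sensors summed to 1700 to 2410 CPM at 5 d and 2350 to 2970 CPM at 30 d, against 3780 to 4970 CPM at 28°C. Its S100 and annexin genes were listed by family. Calcium binding by their products was not tested, so the sum is not a measure of calcium buffering. This sum was carried by a pair of its 9 genes, named after their values were seen: s100a10b averaged 1440 CPM at 5 d and 1730 CPM at 30 d, against 2980 CPM at 28°C, and anxa2a 571 and 716 CPM, against 1330 CPM. Of the other genes of the list, 6 averaged under 1 CPM, and anxa5b averaged 154 CPM at 5 d and 185 CPM at 30 d, against 193 CPM at 28°C. The store-operated list summed to 61.7 to 89.1 CPM at 5 d and 60.3 to 71.1 CPM at 30 d, against 62.6 to 76 CPM at 28°C.

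Methylated fragments were counted on 160561 peaks of the whole genome, and 1466 of these were assigned to 213 of the 258 members. By region, 125 of the member peaks (8.53%) lay in promoters, 306 (20.9%) in exons, 980 (66.8%) in introns and 55 (3.75%) downstream. Of all 93677 peaks assigned to genes, 10290 lay in promoters and 19638 in exons, with 63.2% in introns and 4.89% downstream. The number of peaks per member differed widely: 43 members had 1 peak, the median was 4, and 55 members with 10 or more held 905 peaks, up to 33 in the NMDA receptor gene grin2db. Reads on peaks numbered 2465050 at 5 d, 2406158 at 30 d and 2952954 at 28°C, and member peaks took 0.871%, 0.874% and 0.852% of them. The median count of a member peak above 0 was 13 at 5 d, 15 at 30 d and 17 at 28°C, so most single peaks rest on few reads.

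The meaning of a 0 in this table limits what can be read from it. Among the member peaks, 669 (45.6%) had reads in all 3 libraries and 797 were listed at 0 in at least 1. A count of 1 does not occur in the table, and 76 of these 797 peaks had at least 20 reads in another library. In the ErbB receptor gene erbb2, chosen here after its values were seen, the intron peak at chr12:10174432-10188045 (Zv9) held 503 reads at 5 d and was listed at 0 at 30 d, against 480 reads at 28°C. The exon peak at chr12:10164496-10168803 held 334 and 257 reads in the cold libraries and was listed at 0 at 28°C. The neighbouring exon peak at chr12:10148159-10155942 held 591, 402 and 497 reads in the same order. Whether a listed 0 means that no read fell there is not given in the sources used here, so no fold is given against it. With 1 library per group, the tests compare these libraries and not the conditions.

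The share of member peaks that differed was close to that of all peaks. A peak was called where Fisher's exact test of its reads against all other reads on peaks had a false discovery rate (FDR) of at most 0.01 and the ratio of RPM + 1 (RPM, reads scaled to the total on peaks) was at least 2 or at most 0.5. At 5 d, 194 member peaks were higher than at 28°C (13.2%, against 11.3% of all peaks) and 187 lower (12.8%, against 12.5%), and 347 of these calls involved a listed 0. At 30 d, 168 were higher (11.5%, against 10.9%) and 134 lower (9.14%, against 9.25%), and 300 of these involved a 0. Between 30 d and 5 d, 203 were higher (13.8%, against 14.4%) and 132 lower (9.0%, against 8.5%). With the totals scaled by the median ratio, that split became 174 higher and 171 lower. Among peaks with reads in all 3 libraries, 14 were higher and 19 lower at 5 d (4.93%, against 4.66% of such peaks genome-wide), and 2 were higher and 0 lower at 30 d (0.299%, against 0.536%).

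**Figure D4:**
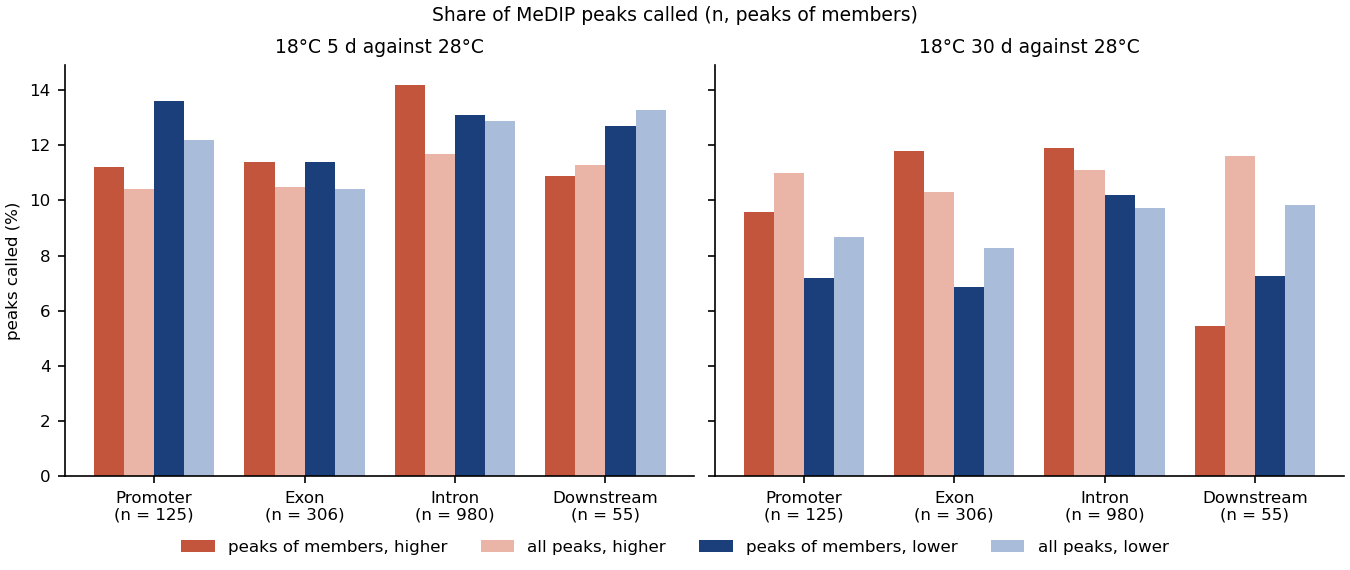
Percent of MeDIP peaks called higher (red) or lower (blue) than at 28°C in each gene region, for the 5 d library (left) and the 30 d library (right). Dark bars are peaks of members, with their number under each region, and light bars all peaks of that region. In introns at 5 d, 14.2% of member peaks were higher, against 11.7% of all intron peaks.

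By role, the 90 peaks of protein kinases A and C had 7 higher (7.78%) and 19 lower (21.1%) at 5 d, against 11.3% and 12.5% of all peaks. At 30 d they had 6 higher (6.67%) and 9 lower (10.0%), against 10.9% and 9.25%. The 155 peaks of pumps and exchangers had 26 higher (16.8%) and 12 lower (7.74%) at 5 d and 18 of each (11.6%) at 30 d. The 204 peaks of voltage-gated channels had 25 higher and 25 lower (12.3% each) at 5 d and 24 (11.8%) and 19 (9.31%) at 30 d. The 178 peaks of G protein-coupled receptors had 21 higher (11.8%) and 16 lower (8.99%) at 5 d and 25 (14.0%) and 7 (3.93%) at 30 d. Differences between roles were not tested.

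At both times 52 member peaks were higher than at 28°C (3.55%, against 2.98% of all peaks) and 70 lower (4.77%, against 4.87%), and no peak was called in opposite directions. All 52 higher peaks were listed at 0 at 28°C, and 69 of the 70 lower ones at 0 in both cold libraries. Both comparisons share the 28°C library. In promoters, 5 peaks were higher (4.0%, against 3.18%) and 5 lower (4.0%, against 4.47%), and all of these rest on a listed 0.

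Among the promoter peaks higher at both times was one of camk2a, the calmodulin-dependent kinase II alpha gene, at chr21:42503724-42505358 (Zv9), with 27 reads at 5 d and 22 at 30 d, against a listed 0 at 28°C. Its 2 neighbours, labelled as promoter peaks of the same gene, went the other way at 5 d. Both were called lower there by Fisher's exact test (FDR 1.69e-08 and 7.36e-05, in the order below), each against a listed 0, and neither was called at 30 d. The peak at chr21:42497458-42500989 was listed at 0 at 5 d and held 46 reads at 30 d, against 39 at 28°C. The peak at chr21:42502156-42503092 was listed at 0 at 5 d and held 13 reads at 30 d, against 22 at 28°C. The study used a primer pair of its own for quantitative PCR of methylated camk2a DNA, and its sequences are shown because they identify the part of this gene chosen for that assay. The paper reports that its PCR data for the loci assayed in this way, camk2a among them, matched its MeDIP-seq data. The position of the primer pair relative to these peaks was not determined, so the peak that this result concerns is not known here.
camk2a forward: ttcgaatcgtcaggcagaag
camk2a reverse: tcccctcgtttcacttttcc

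The other promoter peaks higher at both times were those of vdac2 at chr13:17774858-17775265, with 10 and 13 reads, of the calcineurin gene ENSDARG00000069360 at chr1:52102630-52104291, with 14 and 13 reads, of the ATP-gated channel gene p2rx1 at chr5:33108691-33109661, with 9 and 8 reads, and of slc8a2b at chr15:41632108-41633007, with 16 and 27 reads at 5 d and 30 d, each listed at 0 at 28°C. A second promoter peak of slc8a2b, at chr15:41649831-41651715, was lower, listed at 0 in both cold libraries against 22 reads at 28°C. This exchanger gene thus had peaks labelled promoter in both directions. The peaks are labelled by region and gene and not by transcript start, so they need not share a promoter. The other lower promoter peaks were listed at 0 in the cold as well. They were those of the endothelin receptor gene ednrba at chr1:27564740-27565147, with 24 reads at 28°C, of the ATP-gated channel gene p2rx2 at chr5:14026184-14026900, with 14, of plcg1, a phospholipase C gamma gene, at chr23:2801787-2802406, with 12, and of the ligand-gated or TRP channel gene ENSDARG00000086187 at chr25:592036-592750, with 12 in a CpG island.

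None of the genes with these promoter peaks differed in RNA by the test. camk2a averaged 2.79 ± 0.258 CPM at 5 d and 2.45 ± 0.313 CPM at 30 d, against 4.45 ± 1.07 CPM at 28°C (log2 fold changes -0.67 and -0.86, edgeR adjusted p 0.438 and 0.247). plcg1 averaged 120.9 ± 41.5 CPM at 5 d and 114.1 ± 26.4 CPM at 30 d, against 92.7 ± 15.8 CPM at 28°C. p2rx1 and ENSDARG00000086187 had too few counts to be tested.

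The 5 promoter peaks with the highest values at 28°C had reads in all libraries. That of GNAS at chr6:49823978-49825443, in a CpG island, held 89 reads at 5 d and 74 at 30 d, against 117 at 28°C. That of adcy8, an adenylate cyclase gene, at chr2:42968367-42969901 held 78 and 48 reads, against 77, and that of the serotonin receptor gene htr2ab at chr6:9986294-9987596 held 68 and 57, against 62. ENSDARG00000090525, at chr7:778086-781359, held 99 and 63 reads, against 110. The peak of ENSDARG00000073795 at chr7:1579194-1583651 was the one of the 5 that was called, with 166 reads at 5 d and 70 at 30 d, against 94 at 28°C (ratio 2.08 at 5 d, FDR 3.58e-07).

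Within genes, 35 peaks of 32 members had reads in all 3 libraries and were called at 1 time against 28°C, 25 of them in introns, 7 in exons, 2 downstream and 1 in a promoter. Of the 33 called at 5 d, 0 were called at 30 d. Genome-wide, 3573 peaks with reads in all 3 libraries were called at 5 d, and 86 of them at both times. A count of 0 among 33 is therefore not particular to the members. The ratios of the 33 member peaks lay between 0.189 and 3.12 at 5 d and between 0.521 and 1.88 at 30 d. These peaks were picked by their value at 5 d, so the smaller ratios at 30 d are given as a description. The highest ratio at 5 d was that of an intron peak of grin2cb, an NMDA receptor subunit gene, at chr12:33653611-33655605, with 146 reads at 5 d and 51 at 30 d, against 54 at 28°C (ratio 3.12, FDR 1.48e-12). An intron peak of ptk2bb, a tyrosine kinase gene activated by calcium in mammals, at chr20:19902966-19903734 held 9 and 58 reads, against 58, with a ratio of 0.225 at 5 d. The T-type channel gene cacna1ha had an exon peak at chr3:39902075-39903562 with 43 and 86 reads, against 124. In cacna1da an intron peak at chr11:37771529-37772578 held 7 and 22 reads, against 37. It was one of 28 peaks of this gene, of which 4 were higher and 5 lower at 5 d and 6 higher and 5 lower at 30 d, with 1 higher and 3 lower at both times. The peaks called at 30 d were an exon peak of the sphingosine kinase gene sphk1 at chr3:6495394-6497783, with 10 reads at 5 d and 27 at 30 d, against 10 at 28°C (ratio 2.79 at 30 d), and an intron peak of grin2db at chr16:15010503-15014858, with 49 and 57 reads, against 32 (ratio 2.09).

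**Figure D5:**
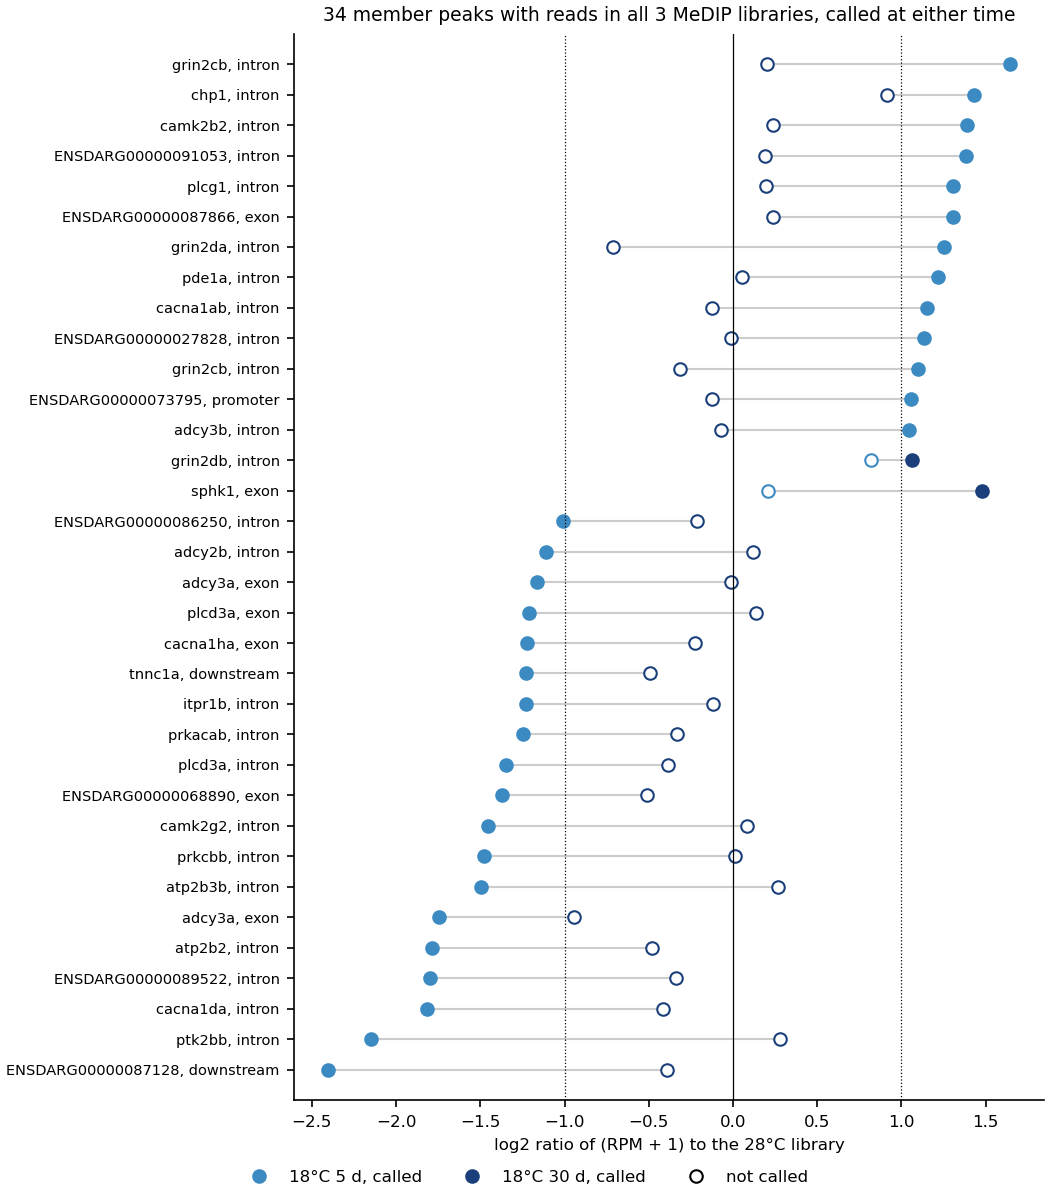
Log2 ratio of RPM + 1 to the 28°C library for 34 member peaks with reads in all 3 libraries that were called at either time, at 5 d (light blue) and at 30 d (dark blue). Filled points were called, open points were not, and dotted lines mark a 2-fold ratio. The 32 plotted peaks called at 5 d have open points at 30 d.

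The exchanger gene slc8a4a, whose RNA lay higher in all cold libraries, carried 14 peaks on chromosome 21, 7 of them with reads in all 3 libraries, and 0 of those 7 were called against 28°C. Its intron peak at chr21:26503063-26503782 held 19 and 11 reads and its exon peak at chr21:26513757-26514399 held 11 and 8 reads at 5 d and 30 d, each listed at 0 at 28°C. A further peak at chr21:26479376-26479944 was listed at 0 in both cold libraries, against 14 reads at 28°C. Of its peaks labelled promoter, which need not share a transcript start, that at chr21:26520255-26520953 held 13 reads at 5 d and was listed at 0 at 30 d and at 28°C. That at chr21:26579533-26580786 held 9 and 15 reads, against 15 at 28°C. Calls in this gene thus lay in both directions and each involved a listed 0.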

How the data were processed

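RNA of 9 libraries and MeDIP DNA of 3 libraries, 1 pool per condition, were measured. For RNA the authors deposited raw counts per gene, RPKM and TPM. The aligner and counter for RNA are not given in the sources used here, the RPKM values served for levels only, and the 9 TPM columns were not used. For MeDIP, reads were filtered by the authors (FASTX-Toolkit) and aligned to Zv9 (danRer7) with Bowtie2, and the authors called peaks per library with MACS, merged overlapping peaks with Bedtools, counted reads back on the merged peaks and scaled these to RPM. The deposited ratios, fold changes, p-values and FDR columns hold the authors' own comparisons and were not used. No genome was used, so no promoter sequence was read.

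Counts were tested with edgeR 4.0.16 (TMM, filterByExpr, quasi-likelihood F test, 9 libraries in a single fit, Benjamini-Hochberg adjusted p below 0.05) in R 4.3.3. The SE of a log2 fold change was taken as its size divided by the square root of F. Libraries of the same number deviated together (r of 0.336 to 0.771 for same-numbered pairs, -0.815 to 0.604 for others). Every negative value joined a library numbered 3 with a library of another number (-0.815 to -0.313). Pairs of numbers 1 and 2 were all positive (0.169 to 0.604), and some exceeded same-numbered pairs. The check thus sets the libraries numbered 3 apart and does not show that numbers 1 and 2 mark pairs. The labels do not say what a number marks, and the block rests on this check alone, so the fit with the library number as a block is given beside the main fit where it changed a call. Alternatives were upper-quartile scaling, DESeq2 1.42.0, keeping genes of low counts, only the 6 libraries compared, a fold of at least 2 and leaving out each library. CPM values are edgeR's, and the members not tested averaged at most 0.718 CPM in every condition. Library totals of at least 21407769 counts leave members under 1 CPM with few counts and low precision.

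Peaks were tested with Fisher's exact test (SciPy 1.17.1) over all 160561 peaks, with a pseudocount of 1 RPM. The deposited RPM differed from reads divided by the total on peaks by at most 0.0005. Fisher's test covers counting error only. Both tests were tested on simulated data first. For RNA, 200 genes above the median level were changed 4-fold in simulated counts. Without the block edgeR recovered 46.5% of them at 5 d and 47.5% at 30 d, and with the block 98% and 97%. Each fit was simulated from its own fitted means and dispersions. The shares therefore hold for those settings and do not give the power for members of low counts.

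Named were members called in either comparison with 28°C with or without the block, members above the median expression of tested genes whose 3 cold libraries lay outside the range at 28°C (up to 10 each way per time), the member of highest RPKM at 28°C per role, promoter peaks called at both times, called peaks with reads in all 3 libraries, and the 5 highest promoter peaks. Others were chosen after their values were seen. Roles follow KEGG ortholog names. The members, roles and lists were chosen with earlier results of these data known. 1 named peak is not reported here.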

Additional observations from a re-analysis of the deposited data

Results flagged for a closer look

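For 20 of the member peaks with reads in all 3 libraries that were called against 28°C, the 30 d and 5 d libraries themselves differed by Fisher's exact test (FDR at most 0.01 and at least 2-fold). This test compares 2 single libraries and covers counting error only, so it does not show that the effects of the 2 exposure times differ. All 20 had been picked by their value at 5 d, which favours such a difference, and both effects share the 28°C library. Among peaks with reads in all 3 libraries, called against 28°C or not, 4.63% of member peaks differed between the 30 d and 5 d libraries. The share of all such peaks was 4.61%, so this difference is not particular to the members. The ratios below are of RPM + 1 at 30 d over 5 d.

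In 9 peaks the 30 d library was higher. The ratio was 5.4 in the intron peak of the tyrosine kinase gene ptk2bb, 4.03 downstream of the mitochondrial member ENSDARG00000087128 and 3.4 in the intron peak of the calcium pump gene atp2b3b. It was 2.91 in camk2g2, 2.81 in the protein kinase C gene prkcbb, 2.55 in the exon peak of plcd3a, 2.35 in adcy2b, 2.22 in the exon peak of adcy3a at chr16:3141776-3142952 and 2.16 in the release channel gene itpr1b.

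In 11 peaks the 30 d library was lower. The NMDA receptor genes had ratios of 0.257 in grin2da and of 0.374 and 0.369 in the intron peaks of grin2cb. Ratios were 0.413 in cacna1ab, 0.436 in the adenylate cyclase gene ENSDARG00000091053, 0.44 in the promoter peak of ENSDARG00000073795, 0.447 in the phosphodiesterase gene pde1a and 0.452 in ENSDARG00000027828. They were 0.46 in adcy3b, 0.462 in plcg1 and 0.478 in the exon peak of ENSDARG00000087866.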

How the results depend on the processing

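The count of members differing in RNA was 0 in each comparison under upper-quartile scaling, without the filter, with only the 6 libraries compared, with a fold of at least 2 and without any 1 library (range 0 to 0). Few genes of any kind were called under these settings. Upper-quartile scaling called 9 of 19622 genes higher and 4 lower at 30 d, and testing without the filter 2 of 26392 higher. The 6 libraries compared gave 0 genes, and leaving out 1 library at most 2. The counts of 0 are thus not particular to the members. The replicate block gave 1 member at 30 d, slc8a4a, and changed no other call. With only the libraries numbered 1 and 2 the count of members was 0 with the block, and 0 without it, a fit chosen after seeing the data. Of all 19605 genes then tested, 9 were higher and 2 lower at 30 d with the block, and 43 and 11 without it. DESeq2 called 6 members at 5 d (atp2b3b, atp2a2a, slc8a4a, cacna1ab, ptger3, phkb) and 3 at 30 d (slc8a4a, phka1a, gnaq), and the cause was not tested. Over all tested genes DESeq2 called 360 higher and 216 lower at 5 d and 634 and 311 at 30 d, against 0 and 0, and 8 and 4, by edgeR. The log2 fold change of PLCE1 at 5 d, 0.10, ranged from -0.016 to 0.247 without single libraries, with -0.006 without 28°C replicate 1 and -0.016 without 5 d replicate 1. Peak calls depended on listed zeros and thresholds. The counts for 5 d against 28°C, 30 d against 28°C and 30 d against 5 d were 381, 302 and 335. They were 25, 0 and 20 when only peaks with reads in all 3 libraries were tested, 80, 17 and 76 with every 0 set to that library's smallest count above 0, and 125, 101 and 106 at an FDR of at most 0.001 and 4-fold. Member peaks numbered 1466, of which 669 had reads in all 3 libraries. Over all 160561 peaks the main counts were 38075, 32357 and 36757. Under these alternatives, in the same order, they were 2525, 79 and 2386 of 76611 peaks, then 7553, 1966 and 7699, and 13003, 11649 and 11513. The falls were thus shared by all peaks. Totals scaled by the median ratio gave 381, 276 and 345 member peaks, against 38075, 29726 and 36804 of all peaks. This scaling turned the intron ratios of prkcbb (1.01) and pde1a (1.04) at 30 d to 0.951 and 0.983. Counts of 13 to 17 reads per typical member peak and single MeDIP libraries limit these calls.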
